A study of Mus musculus with 16 samples.

Results

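The 10 genes described here are the core of the circadian clock and its output factors: *Arntl*, *Clock* and *Npas2*, which form the activating (positive) arm; *Per1*, *Per2*, *Per3*, *Cry1* and *Cry2*, which form the repressing (negative) arm; and *Dbp* and *Nfil3*, which act on D-box elements. They were chosen by name, with earlier results of these data known, and are 10 of the 49066 genes obtained when the deposited transcript values were summed per gene symbol. All 10 had transcripts in the table, and 9 of them had a mean of at least 1 TPM (transcripts per 1000000, a level corrected for length), the minimum used for testing. *Npas2* was below it and was left out of the main fits. Its levels, an exact permutation test, correlations and its part in an index are given, and all of these rest on low values.

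BAT was taken from mice on the C57BL6/J background that were 18 weeks old and had been fed a high-fat diet (HFD, 60% of energy from fat) for 12 weeks from 6 weeks of age. KO mice carried *Gdf15* fl/fl alleles and a Cre transgene driven by the *Ucp1* promoter, which deletes *Gdf15* in thermogenic adipocytes and leaves it intact in other cells of the tissue. WT mice were littermates with the same *Gdf15* fl/fl alleles and no Cre, so the floxed alleles and the diet were shared by all mice. Each sex and genotype had 4 mice with 1 library each, 16 in all. Mice were kept at 22 °C, unless the authors state otherwise, under a cycle of 12 h light and 12 h dark. Some mice of the study were housed warmer for calorimetry late in the diet, and whether these 16 were among them is not given in the sources used here. The hour at which each BAT was taken is not given in the sources used here, so no library can be assigned to a phase of the day, and differences between groups in clock gene levels cannot be told apart from differences in the time of collection.

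The clock is a feedback loop that runs in nearly every cell. ARNTL (BMAL1) pairs with CLOCK or its relative NPAS2, binds E-boxes and activates the *Per* and *Cry* genes, whose proteins then repress that pair, while the receptors NR1D1 and NR1D2 repress *Arntl*. DBP is activated through E-boxes and drives D-box genes, which NFIL3 represses, so that *Arntl* and *Dbp* peak at nearly opposite times of day. In brown fat the clock is known for daily changes in heat production and lipid metabolism, and *Per1* and *Per2* also respond directly to glucocorticoids.

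Promoter windows of 6 members that moved together or against each other are shown first. Factors of the loop bind short elements, and some of these windows hold matches to such elements. A window of *Per1*, which moved with neither *Arntl* nor *Dbp* over the 16 libraries together, is shown with the other windows. The windows are from RefSeq on build GRCm38.p6 and run from 250 bases before to 50 bases after an annotated start, 300 bases in all, read 5′ to 3′ on the strand of the gene. Matches of 4 kinds of element on either strand are in capitals: the E-box CACGTG, its variant CACGTT, the D-box TTANGTAA, and AGGTCA, the half-site of NR1D receptors. TGACCT and AACGTG are the reverse strand of the half-site and of the E-box variant.
Arntl, chr7:113207261-113207560, plus strand: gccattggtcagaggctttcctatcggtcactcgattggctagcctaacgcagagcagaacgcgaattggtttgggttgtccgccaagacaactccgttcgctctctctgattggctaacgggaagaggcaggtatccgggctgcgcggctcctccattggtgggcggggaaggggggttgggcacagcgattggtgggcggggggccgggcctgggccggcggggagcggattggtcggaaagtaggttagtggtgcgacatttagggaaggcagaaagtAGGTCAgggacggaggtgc
Per1, chr11:69098699-69098998, plus strand: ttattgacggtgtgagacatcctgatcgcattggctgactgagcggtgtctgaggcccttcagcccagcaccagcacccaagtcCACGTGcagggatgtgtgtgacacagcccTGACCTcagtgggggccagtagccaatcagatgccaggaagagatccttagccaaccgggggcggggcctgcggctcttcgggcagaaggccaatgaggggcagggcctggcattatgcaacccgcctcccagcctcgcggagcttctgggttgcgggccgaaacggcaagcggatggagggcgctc
Per3, chr4:151044616-151044915, minus strand: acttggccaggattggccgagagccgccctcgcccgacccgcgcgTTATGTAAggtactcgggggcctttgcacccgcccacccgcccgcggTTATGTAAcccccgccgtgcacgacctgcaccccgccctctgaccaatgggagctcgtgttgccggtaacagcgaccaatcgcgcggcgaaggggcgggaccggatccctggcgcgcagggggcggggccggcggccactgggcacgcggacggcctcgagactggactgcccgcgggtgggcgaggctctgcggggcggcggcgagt
Cry1, chr10:85185005-85185304, minus strand: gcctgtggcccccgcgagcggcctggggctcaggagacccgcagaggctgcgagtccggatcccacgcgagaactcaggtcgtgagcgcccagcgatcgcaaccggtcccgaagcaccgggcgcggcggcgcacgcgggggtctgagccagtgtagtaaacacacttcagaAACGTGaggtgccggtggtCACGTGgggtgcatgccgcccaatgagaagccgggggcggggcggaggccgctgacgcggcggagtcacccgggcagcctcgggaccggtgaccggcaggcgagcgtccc
Cry2, chr2:92434020-92434319, minus strand: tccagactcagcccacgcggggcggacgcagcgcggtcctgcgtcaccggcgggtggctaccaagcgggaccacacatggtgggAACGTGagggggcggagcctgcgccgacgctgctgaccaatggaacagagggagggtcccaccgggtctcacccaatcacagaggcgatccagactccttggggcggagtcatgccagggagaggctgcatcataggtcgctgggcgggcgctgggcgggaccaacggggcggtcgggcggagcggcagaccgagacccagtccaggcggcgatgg
Dbp, chr7:45704997-45705296, plus strand: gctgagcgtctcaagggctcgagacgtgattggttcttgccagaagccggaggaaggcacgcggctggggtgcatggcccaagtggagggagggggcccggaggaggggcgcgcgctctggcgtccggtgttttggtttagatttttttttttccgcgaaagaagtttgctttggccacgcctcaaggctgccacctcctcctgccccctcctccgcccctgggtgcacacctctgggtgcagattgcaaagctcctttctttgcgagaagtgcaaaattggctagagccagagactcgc
Nfil3, chr13:52980990-52981289, minus strand: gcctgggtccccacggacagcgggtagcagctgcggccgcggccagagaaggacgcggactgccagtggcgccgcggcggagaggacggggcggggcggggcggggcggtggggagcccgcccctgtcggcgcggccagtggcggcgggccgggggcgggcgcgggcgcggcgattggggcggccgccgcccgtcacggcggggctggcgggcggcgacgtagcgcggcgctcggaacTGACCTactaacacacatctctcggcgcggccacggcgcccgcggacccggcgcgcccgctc

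Of all 32851 windows of this length in the RefSeq table, 7.15% held the E-box, 4.68% its variant, 2.32% the D-box and 16.3% the half-site. In these windows *Cry1* held the E-box and its variant, *Per1* the E-box and a half-site, *Cry2* the variant alone, and *Per3* 2 copies of the D-box TTATGTAA. The windows of *Arntl* and *Nfil3* each held 1 half-site, and the *Dbp* window held none of the 4 elements. A window was at hand for 9 of the 10 members, some with 2 or 3 annotated starts. *Arntl* and *Per1* each had 2 windows, of which the 1 with matches is shown and the other held none of the 4 elements. The *Npas2* window, not shown, held none of them either, and a *Clock* window, also not shown, held a half-site. *Per2* had no entry. These matches describe letters, and whether a factor sits on them in BAT was not measured.

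*Ucp1*, the uncoupling protein that defines brown adipocytes, stood between 2353 and 4423 TPM, and all 11 brown adipocyte markers had a mean of at least 1 TPM, with a summed level of 9511 to 17428 TPM. *Gdf15* was 0.368, 0.690, 1.55 and 3.81 TPM in male WT against 0.0915, 0.0801, 0.255 and 0.272 TPM in male KO, with no overlap, and 0.0622, 0.311, 0.170 and 0.290 TPM in female WT against 1 KO library at 0.0794 TPM and 3 listed at 0. The mitochondrial genome made up 34.5 to 59.8% of a library. The lowest share was that of female WT replicate 4, which stood apart in having 17.7% of its TPM in transcripts with no matched symbol, against 0.333 to 0.480% in the other 15. Markers of other cells moved with the groups in places: the summed macrophage list (8 genes, 7 with a mean of at least 1 TPM) was 40.1 to 77.4 TPM in male WT and 101 to 149 TPM in male KO, the fibroblast list (5 genes) 89.1 to 140 TPM in male WT and 177 to 188 TPM in male KO, and the endothelial list (5 genes) 123 to 185 TPM in female WT and 214 to 404 TPM in female KO, each without overlap. The skeletal muscle list (7 genes) spread from 1.85 to 3751 TPM over the 16 libraries. Their part in the clock gene values was not tested. In whole tissue, fewer cells that express a gene and less RNA per cell cannot be told apart. TPM keep no read number, so the depth behind a value is unknown and only the spread between mice is given.

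The D-box factors and *Per1* had the highest means over 16 libraries, 14.2 ± 6.97 TPM (SD) for *Nfil3*, 13.6 ± 12.2 TPM for *Dbp* and 13.05 ± 7.47 TPM for *Per1*. *Cry2* followed with 9.62 TPM and *Per3* with 8.96 TPM, then *Clock* with 4.78 ± 0.702 TPM, *Arntl* with 4.63 ± 2.02 TPM and *Per2* with 4.35 ± 3.57 TPM. *Cry1* was lower, at 2.69 TPM, and *Npas2* was lowest, at 0.393 TPM. The means of *Nfil3*, *Dbp* and *Per1* differed by less than 1 SD of any of them, as did those of *Clock*, *Arntl* and *Per2*, so the order within each of these sets was within the spread between mice.

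Most clock genes differed more between mice of one group than the typical gene did. The SD of log2(TPM + 0.5) about the 4 group means was 0.90 for *Per2*, 0.90 for *Per1* and 0.89 for *Dbp*, against a median of 0.24 over the 12210 genes tested. It was 0.55 for *Per3*, 0.49 for *Arntl* and 0.45 for *Nfil3*, so that 5 of the 9 members tested were among the 10% of genes with the largest spread. *Cry2* (0.30) and *Cry1* (0.24) were near the median. *Clock* was the exception, with an SD of 0.13, larger than in only 2.32% of genes. From the lowest to the highest library, *Dbp* ranged 22.4-fold, *Per2* 19.3-fold, *Per1* 6.47-fold and *Arntl* 5.10-fold, whereas *Clock* ranged 1.68-fold. The count of 5 was 3 when the mitochondrial genome was removed and the rest rescaled, and 3 without female KO replicate 2.

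**Figure D1:**
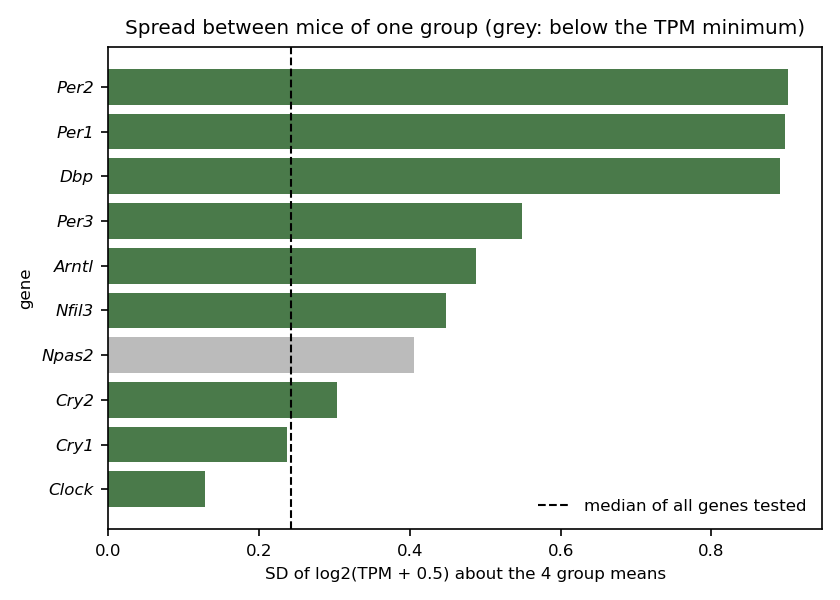
SD of log2(TPM + 0.5) about the 4 group means for each of the 10 clock genes (bars), with the median over all genes tested (dashed line, 0.24). *Per2*, *Per1* and *Dbp* sit near 0.9, and *Clock*, at 0.13, is the only bar well under the line; *Npas2* (grey) was below the TPM minimum.

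Among the positive arm, *Arntl*, the partner without which the loop stops, was 2.82, 4.45, 1.73 and 1.79 TPM in male WT and 6.44, 4.38, 2.02 and 3.48 TPM in male KO. In females it was 6.04, 6.40, 6.13 and 6.004 TPM in WT and 8.80, 3.52, 5.90 and 4.23 TPM in KO. The 4 female WT mice lay within 1.07-fold of each other and above every male WT mouse, while the other groups each spread at least 2.50-fold. The 2 coding transcripts that took 44.2% and 43.1% of its TPM had like levels in each group.

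*Clock*, whose protein is the usual partner of ARNTL, was 4.90, 4.53, 4.03 and 5.34 TPM in male WT and 4.76, 4.34, 3.86 and 4.74 TPM in male KO. It was 6.49, 5.55, 5.67 and 5.00 TPM in female WT and 4.44, 4.15, 4.09 and 4.56 TPM in female KO, so that all female KO mice lay under all female WT mice. At the level of transcripts, one coding form (Ensembl name Clock-201) had a mean in females of 3.10 ± 0.697 TPM (SD, n = 4) with WT and of 1.30 ± 0.693 TPM with KO, with no overlap, while the other (Clock-205) averaged 2.37 ± 0.655 and 2.89 ± 0.618 TPM. How reads are split between forms of a gene is estimated by the quantification, and that error is not in these SDs. *Npas2*, the relative of *Clock*, ran from 0.0283 to 0.299 TPM over the 8 male libraries and from 0.276 to 1.79 TPM over the 8 female ones.

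In the negative arm, *Per1* was 4.12, 6.83, 8.73 and 20.1 TPM in male WT and 14.9, 9.88, 20.8 and 12.7 TPM in male KO. In females it was 10.1, 3.83, 3.97 and 24.5 TPM in WT and 21.6, 6.002, 15.9 and 24.8 TPM in KO. All 4 groups overlapped. *Per2*, its close relative, was 0.764, 1.56, 4.18 and 7.61 TPM in male WT and 2.60, 3.57, 7.76 and 6.35 TPM in male KO. It was 2.33, 0.834, 1.66 and 3.07 TPM in female WT and 6.47, 3.31, 2.77 and 14.7 TPM in female KO, where only the lowest KO mouse reached into the WT range. *Per3*, which is less needed for the rhythm than the other *Per* genes, was 7.27, 9.82, 16.3 and 14.4 TPM in male WT and 5.60, 10.1, 16.3 and 11.1 TPM in male KO. In females it was 5.35, 4.75, 9.41 and 7.68 TPM in WT and 4.18, 11.5, 5.14 and 4.41 TPM in KO. A form annotated as a processed transcript, not as coding, took 58.4% of the *Per3* TPM and the main coding form 33.5%.

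*Cry1*, the stronger repressor of the *Cry* pair, was 1.77, 1.77, 1.51 and 2.04 TPM in male WT and 3.32, 3.26, 2.02 and 2.74 TPM in male KO, where 1 KO mouse lay inside the WT range. It was 2.65, 3.36, 3.09 and 2.87 TPM in female WT and 4.16, 2.15, 3.23 and 3.06 TPM in female KO. Female WT mice were all above male WT mice. *Cry2* ranged from 7.98 to 13.8 TPM in male WT, 8.21 to 15.2 TPM in male KO, 6.90 to 9.65 TPM in female WT and 6.05 to 9.79 TPM in female KO.

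*Dbp*, the D-box activator and the classical readout of E-box drive, had the widest range of the members above the TPM minimum. It was 13.7, 15.03, 29.4 and 32.6 TPM in male WT and 6.62, 14.8, 42.0 and 20.9 TPM in male KO. It was 4.02, 2.56, 3.88 and 2.83 TPM in female WT and 1.87, 17.5, 3.53 and 6.42 TPM in female KO. The lowest male WT mouse was above the highest female WT mouse, and in each sex the KO mice spread over and beyond the range of the WT mice. Of its 5 transcripts, 2 are annotated as retaining an intron and took 16.1% and 11.7% of the TPM. *Nfil3*, the D-box repressor, was 5.91, 8.93, 8.63 and 6.90 TPM in male WT and 18.1, 11.8, 8.87 and 11.8 TPM in male KO, where 1 KO mouse lay inside the WT range. It was 17.98, 10.3, 12.1 and 18.3 TPM in female WT and 28.7, 10.9, 19.1 and 28.3 TPM in female KO.

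**Figure D2:**
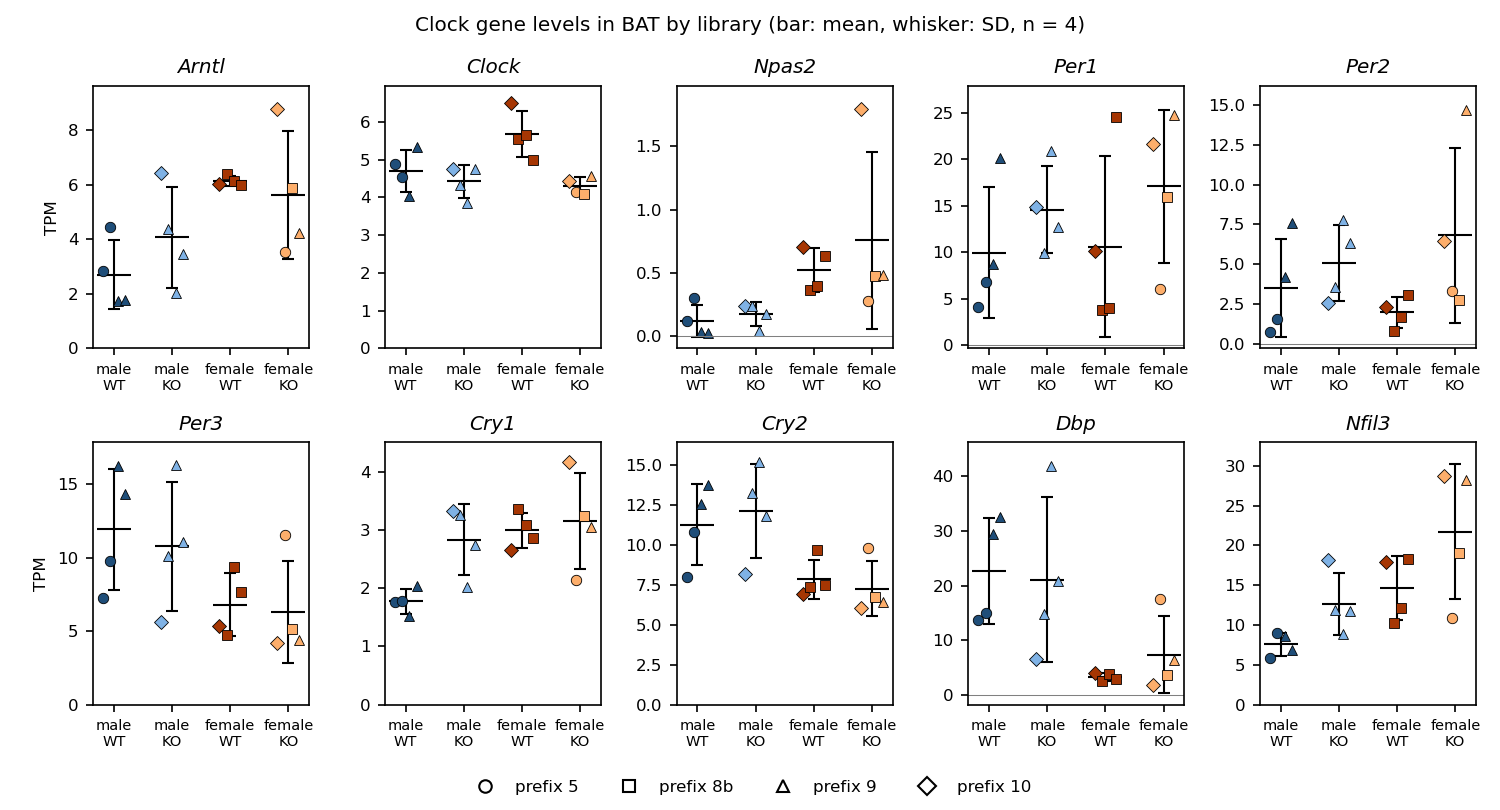
TPM of each of the 10 clock genes in the 16 BAT libraries (points, 4 per group; horizontal bar, mean; whiskers, SD), with the shape of a point giving the prefix of the library's name. The 4 female WT libraries lie at 6.004 to 6.40 TPM for *Arntl* and 2.56 to 4.02 TPM for *Dbp*, while the other groups spread widely.

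Whether loss of *Gdf15* in thermogenic adipocytes went with other clock gene levels was asked within each sex. No member passed the adjusted threshold of 0.05 in males or in females (limma, Benjamini-Hochberg over all genes tested), where 1 of 12176 genes (0.00821%) and 0 of 12141 genes (0%) passed. At an unadjusted p under 0.05, 2 of the 9 members tested stood in males, against 18.7% of all genes, and 2 in females, against 17.1%, so the members' share was near the background. In males these were *Cry1*, with a log2 difference of KO minus WT of 0.54 ± 0.16 (SE; adjusted p = 0.198 by limma), and *Nfil3*, with 0.67 ± 0.21 (adjusted p = 0.203 by limma). The exact two-sided permutation test gave p = 0.0571 for each, where the smallest value that 4 against 4 mice allow is 0.0286. The median difference over all genes tested was 0.16 in males and 0.10 in females, and 0.00 and 0.01 after rescaling by median-of-ratios factors, under which that of *Cry2* in males and that of *Cry1* in females turned negative.

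In females the members at an unadjusted p under 0.05 were *Clock*, with a difference of -0.36 ± 0.11 (SE; adjusted p = 0.231 by limma), and *Per2*, with 1.37 ± 0.49 (adjusted p = 0.243 by limma). For *Clock* the exact permutation p was 0.0286, and it was the only one of the 9 members tested whose WT and KO libraries did not overlap in females, against 8.08% of all genes. In males none of the 9 was without overlap, against 10.2% of all genes. For *Per2* the exact permutation p was 0.0571. The endothelial markers moved with the same groups, all 5 higher on average in female KO with a median difference of 0.75 and 4 of them at an unadjusted p under 0.05, and their part in the values of *Clock* and *Per2* was not tested.

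For 5 members the 95% interval of the KO difference held 0 in both sexes. For *Dbp* it ran from -1.46 to 0.89 in males and from -0.55 to 1.83 in females, for *Per1* from -0.25 to 1.65 in males and from -0.49 to 2.26 in females, and for *Arntl* from -0.28 to 1.29 in males and from -0.72 to 0.33 in females. The others were *Per3* (-0.92 to 0.59 in males, -0.90 to 0.56 in females) and *Cry2*, with the narrowest of these intervals (-0.39 to 0.58 in males, -0.50 to 0.26 in females). *Per1* and *Per2* were higher on average in KO of both sexes, by 0.70 and 0.71 in males and 0.89 and 1.37 in females. In the same comparisons the 10 glucocorticoid-responsive genes, of which 9 were tested, had a median difference of 0.37 in males and 0.89 in females, against 0.16 and 0.10 over all genes tested. Of the 9, 6 were higher and 3 lower on average in male KO, and 7 higher and 2 lower in female KO, with none past the adjusted threshold in limma within a sex. At an unadjusted p under 0.05, 2 were higher in males (17.7% of all genes) and 4 in females (11.6%), with 0 lower in either (1.07% and 5.45%). For the mean KO effect over both sexes 1 of the 9 passed the adjusted threshold, being higher in KO, against 2.93% of all genes. *Fkbp5*, a cochaperone that glucocorticoids induce, differed by 0.78 ± 0.27 in males and 0.89 ± 0.30 in females (adjusted p = 0.214 and 0.237 by limma), whereas *Zbtb16*, a transcription factor, differed by 1.22 in males and -0.45 in females and the metallothionein *Mt1* by -0.32 and 0.92. Whether the difference in *Per* genes depends on that of glucocorticoid targets was not tested.

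Over both sexes together, 0 of the 9 members tested passed for the mean KO effect, while 358 of 12210 genes (2.93%) did. That number of genes ran from 31 without male KO replicate 3 to 1055 without male WT replicate 2 and was 12 with the prefix of the library names as a covariate. *Clock* (-0.22 ± 0.07, adjusted p = 0.0984 by limma), *Nfil3* (0.59 ± 0.20, adjusted p = 0.108), *Per2* (1.04 ± 0.41, adjusted p = 0.137) and *Cry1* (0.29 ± 0.12, adjusted p = 0.159) had an unadjusted p under 0.05, as had 24% of all genes. When libraries were rescaled by median-of-ratios factors, *Clock* passed with a difference of -0.34 (adjusted p = 0.0272 by limma), and without female KO replicate 2 *Nfil3* passed with 0.73 (adjusted p = 0.0317 by limma). With the replicate number as a block, which was not taken as a pairing, *Per2* passed with 1.04 (adjusted p = 0.0269 by limma).

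The KO effect did not pass a test of difference between the sexes for any member (0 of 9, against 0% of 12210 genes tested). An unadjusted p under 0.05 was reached by 0 members and by 14.2% of all genes, and *Cry1*, with a difference of -0.50 ± 0.24 (SE, females minus males), had an adjusted p of 0.362 in limma. Between mice with the same prefix in their library names, the KO difference in males could be taken only within prefix 9, over 2 WT and 3 KO mice, where it was 0.47 for *Cry1*, 0.45 for *Nfil3*, 0.05 for *Per1*, -0.01 for *Per2* and -0.39 for *Dbp*. What the prefix stands for is not given in the sources used here. With the prefix in the fit, the *Dbp* difference in females turned from 0.64 to -0.26 and that of *Arntl* from -0.20 to 0.17, with neither past the threshold in limma. These female values rested on 1 WT and 1 KO mouse under prefix 10 and on 3 WT and 1 KO mice under prefix 8b. Under the other prefixes the females were all KO.

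**Figure D3:**
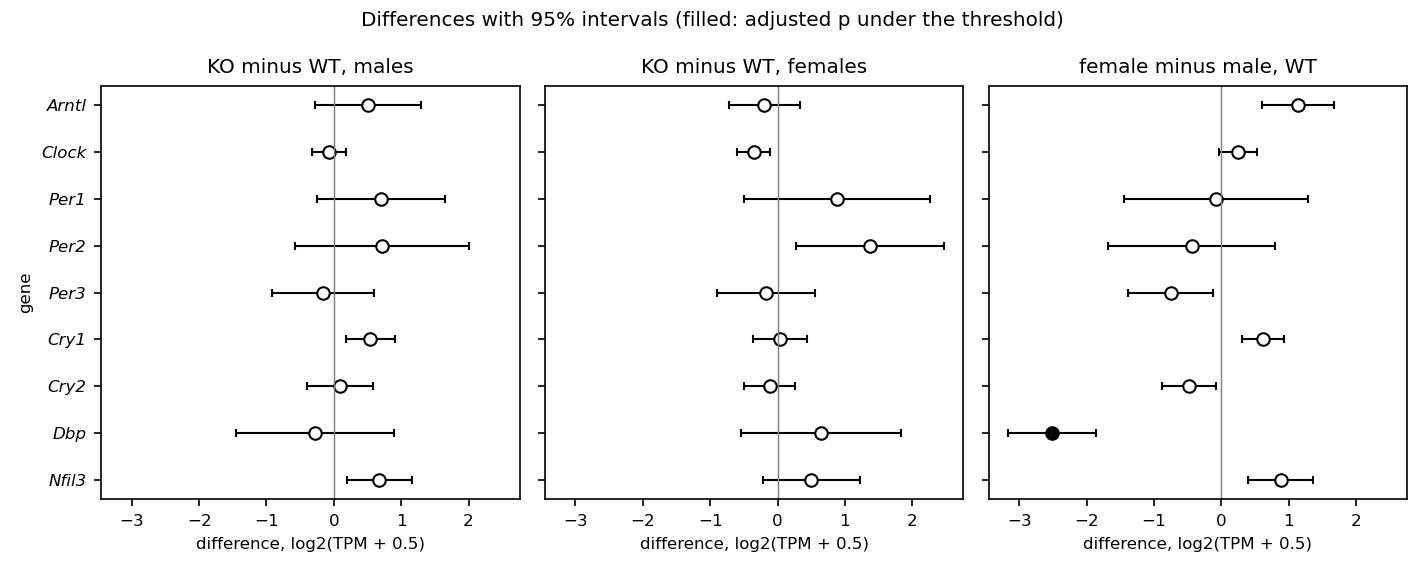
Differences in log2(TPM + 0.5) for the 9 clock genes tested, KO minus WT in males and in females and female minus male in WT, with 95% intervals (n = 4 mice a group). The only filled point, past the adjusted threshold, is *Dbp* between WT females and WT males at -2.52; all others are open.

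Between WT females and WT males the members stood apart more clearly. *Dbp* was lower in females by a difference of -2.52 ± 0.29 (SE; adjusted p = 0.0152 by limma), 3.32 ± 0.734 TPM (SD, n = 4) against 22.7 ± 9.69 TPM, and was the seventh gene by p of 12042, of which 8 (0.0664%) passed. *Arntl* was higher in females by 1.13 ± 0.24 (SE), *Nfil3* by 0.88 ± 0.21 and *Cry1* by 0.62 ± 0.14, none of which passed (adjusted p = 0.681, 0.933 and 0.775 by limma). The libraries of these 4 genes did not overlap between the sexes, 4 of the 9 members tested against 1.92% of all genes, and *Npas2* did not overlap either. Each of these 5 genes reached the smallest exact permutation p of 0.0286. *Per3* (-0.75 ± 0.28) and *Cry2* (-0.48 ± 0.18) were lower on average in females with overlap, so that 6 of the 9 members tested had an unadjusted p under 0.05, against 3.42% of all genes. *Per1* (-0.08 ± 0.61) and *Per2* (-0.44 ± 0.55) had intervals several times wider than their differences.

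The ratio of *Dbp* to *Arntl* TPM was 3.38 to 18.2 in male WT, 1.03 to 20.8 in male KO, 0.401 to 0.667 in female WT and 0.212 to 4.97 in female KO. A clock index, the mean log2(TPM + 0.5) of *Dbp*, *Per1*, *Per2* and *Per3* minus that of *Arntl*, *Clock* and *Npas2*, was 2.12 ± 0.99 (SD) in male WT, 2.18 ± 0.94 in male KO, 0.47 ± 0.46 in female WT and 1.28 ± 0.70 in female KO. The WT groups lay apart (1.17 to 3.14 in males, -0.09 to 1.03 in females), and the KO groups overlapped (1.17 to 3.38 and 0.44 to 1.90). Female KO mice lay on both sides of the gap.

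The sex difference cannot be told apart from the prefix of the library names. The male WT libraries carried the prefixes 5 and 9 and the female WT libraries 8b and 10, so no prefix held both sexes in WT. Over all groups the index was 1.45 ± 0.33 (SD, n = 3) under prefix 5, 2.56 ± 0.65 (n = 6) under prefix 9, 0.59 ± 0.52 (n = 4) under prefix 8b and 0.70 ± 0.41 (n = 3) under prefix 10. *Dbp* was 13.7 to 17.5 TPM under prefix 5 in mice of both sexes and 1.87 to 6.62 TPM under prefix 10 in mice of both sexes. Within a prefix the female minus male difference in *Dbp* was 0.28 under prefix 5 (1 female, 2 males), -1.12 under prefix 10 (2 females, 1 male) and -1.95 under prefix 9 (1 female, 5 males), and that in *Arntl* was -0.01, 0.17 and 0.65. Genotype is mixed with sex in these differences. The female under prefixes 5 and 9 was KO, the males under prefix 5 were WT, and the male under prefix 10 was KO.

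With both genotypes in the comparison (16 libraries, a fit added after the values were seen), 3 of the 9 members passed between the sexes, against 4.48% of 12210 genes. They were *Dbp* (-2.06 ± 0.40, adjusted p = 0.0125 by limma), *Cry2* (-0.59 ± 0.14, adjusted p = 0.0331) and *Nfil3* (0.80 ± 0.20, adjusted p = 0.0417). With the prefix as a covariate none of the 9 passed, and the calls over all genes fell from 547 to 93 of 12210, while the difference in *Dbp* was -0.93 (adjusted p = 0.392 by limma). The call of *Dbp* in WT was also lost when all 16 libraries shared 1 estimate of spread (adjusted p = 0.300 by limma), without female WT replicate 2 (0.0659), 3 (0.0618) or 4 (0.0731), and without a TPM minimum (0.0772), while the difference in *Dbp* stayed between -2.72 and -2.31 with any 1 library left out. The skeletal muscle list moved the same way, with all 7 genes lower in WT females and a median difference of -2.91 but none past the threshold, and its part in the result was not tested.

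Between mice of one group, *Dbp* fell as *Arntl* rose. Over the 16 libraries, with the 4 group means removed, the slope of *Dbp* on *Arntl* was -1.66 ± 0.21 (SE; adjusted p = 0.0211 by limma), the first by p of 12209 genes, of which 2 (0.0164%) passed. Pearson's r of the deviations was -0.91 and Spearman's rho -0.92 (p = 0.00074 and 0.00113, permutations within groups, 9 such relations computed). The correlation was -0.93 in males and -0.93 in females, each over 8 libraries, and -0.93 without the 2 libraries farthest from the median of *Arntl*. In females *Arntl* varied mainly between KO mice, with an SD of log2(TPM + 0.5) of 0.53, against 0.039 in WT. Each female KO library carried a different prefix, so the female value cannot be told apart from the prefix. Under prefix 9, over the levels of 6 libraries, r was -0.84, and with the prefix means removed in place of the group means it was -0.76.

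**Figure D4:**
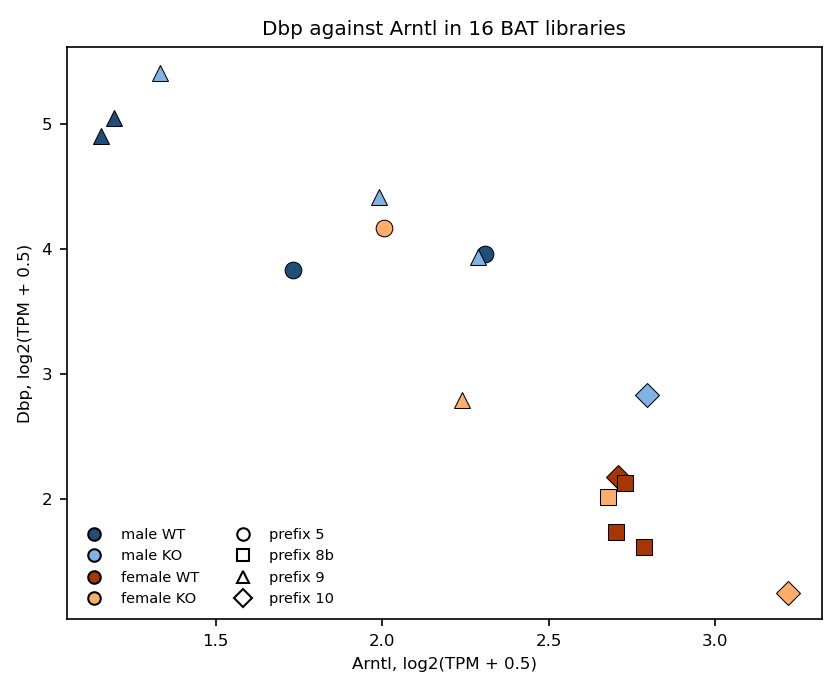
*Dbp* against *Arntl* in the 16 BAT libraries, both as log2(TPM + 0.5), with colour for sex and genotype and shape for the prefix of the library name. The points run from male libraries of prefix 9, high in *Dbp*, down to the libraries of prefixes 8b and 10, and female KO libraries lie at both ends of the female range.

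Most of the other members lined up on one side or the other, but *Clock* and, over all libraries together, *Per1* did not. *Npas2* (r = 0.76), *Cry1* (0.73) and *Nfil3* (0.54) deviated with *Arntl*, and *Per3* (-0.74), *Cry2* (-0.68) and *Per2* (-0.50) against it. Their slopes on *Arntl* were 0.35 ± 0.11 (SE) for *Cry1*, 0.49 ± 0.21 for *Nfil3*, -0.84 ± 0.21 for *Per3*, -0.42 ± 0.13 for *Cry2* and -0.93 ± 0.43 for *Per2*. None of these passed the adjusted threshold in limma, where *Per3* ranked 47 of 12209 with adjusted p = 0.335, but 6 of the 8 members tested had an unadjusted p under 0.05, against 8.34% of all genes. For *Per2* r was -0.76 in males and -0.05 in females, a difference that was not tested, and it was 0.14 under prefix 9 and 0.24 with prefix means removed, and its slope was -0.16 with the prefix in the fit. For *Per3* r was -0.86 in males and -0.59 in females. *Clock* hardly moved with *Arntl* (slope 0.07, r = 0.27). *Per3* and *Cry2* moved closely together (r = 0.93), and *Dbp* deviated with both (0.85 and 0.82) and against *Cry1* (-0.83). In the windows shown above, *Per3* holds 2 D-boxes, the element that DBP binds, and *Cry1* an E-box and its variant, while the *Dbp* window holds neither. The data do not test what these letters do. The forms of *Dbp* each went against *Arntl*, with r from -0.89 to -0.67 over its 5 transcripts.

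*Per1* had no like relation over the 16 libraries together. Its r was -0.11 with *Arntl* and -0.06 with *Dbp*, but these pool opposite signs, -0.52 in males and 0.30 in females with *Arntl* and 0.57 and -0.47 with *Dbp*, and the difference between the sexes was not tested. Its slope on *Arntl* was -0.20 ± 0.49 (SE), although its spread was as wide as that of *Dbp*. It deviated with *Per2* (r = 0.75) and *Nfil3* (0.60). The mean level of the 9 glucocorticoid-responsive genes with a mean of at least 1 TPM deviated with *Per1* (r = 0.76). So did that of the 12 immediate-early genes (0.68), while the mitochondrial share of a library went against *Per1* (-0.67). The same lists had r of 0.00 and 0.13 with *Arntl* and -0.03 and -0.16 with *Dbp*. All these r are over the same 16 libraries, as descriptions.

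**Figure D5:**
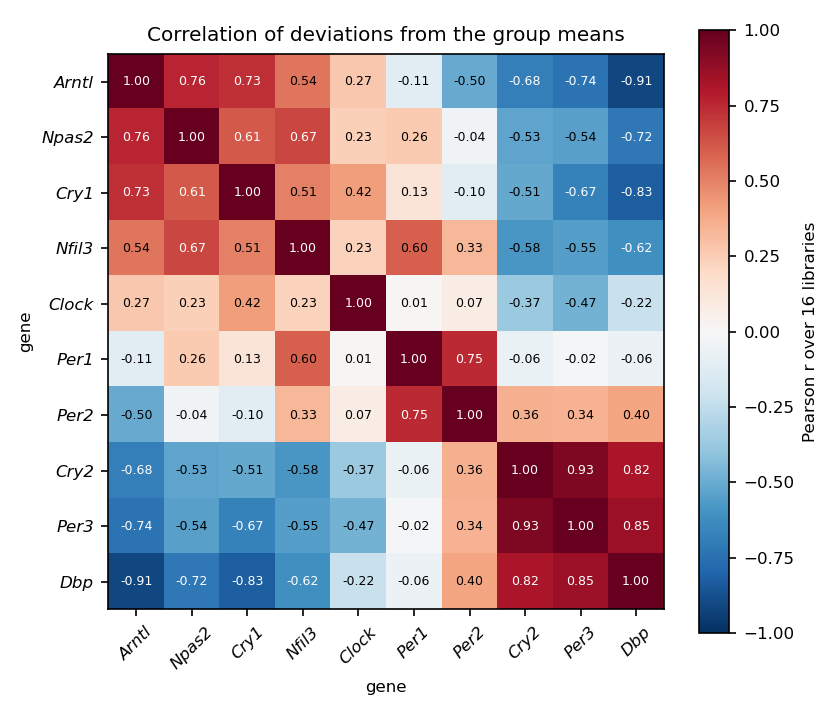
Pearson's r between the 10 clock genes over 16 libraries, from log2(TPM + 0.5) with the mean of each of the 4 groups removed. *Arntl*, *Npas2*, *Cry1* and *Nfil3* form a positive block (0.51 to 0.76), *Dbp*, *Per3* and *Cry2* another (0.82 to 0.93) with negative values between the blocks, and *Per1* pairs with *Per2* at 0.75.

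The call of *Dbp* on *Arntl* depended on single libraries. It was lost without male WT replicate 4 (adjusted p = 0.0726 by limma), male KO replicate 1 (0.127), male KO replicate 3 (0.0848), male KO replicate 4 (0.0507) or female KO replicate 1 (0.241), with the prefix as a covariate (0.623) and without the 4 libraries of prefix 8b (0.229). The slope itself kept to -1.96 to -1.45 with any 1 library left out, was -1.56 with the prefix in the fit and was -1.63 without prefix 8b.

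Of 32 other clock pathway genes on a list written with earlier results known, 30 were tested, and at an unadjusted p under 0.05 13 had a negative slope on *Arntl* (6.52% of all genes) and 0 a positive one (1.82%), with a median slope of -0.18 against 0.00 over all genes tested. The split over all genes depended on the setting: 796 negative and 222 positive of 12209 as fitted, 239 and 255 of 13895 without the mitochondrial genome, and 206 and 614 of 12209 with the prefix as a covariate. None of the 30 passed the adjusted threshold in limma. *Nr1d1*, the repressor of *Arntl*, was 60.5 to 80.3 TPM in male WT, 42.0 to 108 TPM in male KO, 20.3 to 55.2 TPM in female WT and 11.6 to 74.1 TPM in female KO, and had a slope of -1.09 ± 0.28 (SE). *Nr1d2* (-0.84 ± 0.17), *Tef*, a D-box activator related to *Dbp* (-0.80 ± 0.15), and *Hlf*, the third of that family (-0.57 ± 0.22), also ran against *Arntl*. So did the E-box repressors *Bhlhe40* (-0.94 ± 0.23), *Bhlhe41* (-0.83 ± 0.19) and *Ciart* (-0.89 ± 0.21), the cell cycle kinase *Wee1* (-0.53 ± 0.16) and *Nampt*, an enzyme of NAD synthesis (-0.27 ± 0.09). The kinases *Csnk1a1* (-0.25 ± 0.08) and *Gsk3b* (-0.33 ± 0.12) and the ubiquitin ligase parts *Fbxw11* (-0.25 ± 0.10) and *Ddb1* (-0.24 ± 0.11), the last with the highest mean of the list at 56.4 TPM, complete the 13. Against *Dbp*, *Nr1d1* (slope 0.73 ± 0.11) and *Tef* (0.46 ± 0.07) passed, each at an adjusted p of 0.0370 in limma, and *Arntl* (-0.50 ± 0.07) at the same value, all 3 of the genes (0.0246%) that passed. Slopes on *Dbp* were fitted in the main setting only, so how these calls depend on the prefix or on single libraries was not tested.

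The same pathway genes were counted in the group comparisons. Of the 30, none passed for KO in males or in females, with 3 higher (17.7% of all genes) and 0 lower (1.07%) in males and 3 higher (11.6%) and 4 lower (5.45%) in females at an unadjusted p under 0.05. After median-of-ratios scaling the split over all genes was nearer even, 1011 higher and 876 lower of 12081 in males and 1289 and 1162 of 12189 in females. In males the 3 included *Csnk1e* (0.44 ± 0.15) and *Csnk1a1* (0.30 ± 0.13). In females the lower ones were *Gsk3b* (-0.85 ± 0.14), *Prkaa2* (-0.63 ± 0.28), *Arntl2* (-0.55 ± 0.23) and *Bhlhe40* (-0.44 ± 0.18), and the higher ones *Noct* (1.17 ± 0.38), *Timeless* (0.70 ± 0.25) and *Csnk1e* (0.39 ± 0.13). *Csnk1e*, a kinase that marks PER proteins for breakdown, was the only one to pass for the mean KO effect over both sexes, at 0.41 ± 0.10 (adjusted p = 0.0389 by limma), and *Arntl2* (-0.40 ± 0.14), *Gsk3b* (-0.45 ± 0.12), *Noct* (0.68 ± 0.24), *Sfpq* (0.45 ± 0.17) and *Usp2* (0.40 ± 0.18) had an unadjusted p under 0.05 there. Of the 30, 1 thus passed against 2.93% of all genes and 6 stood at the unadjusted threshold against 24%, so their share was near or under the background. When KO effects of females and males were set against each other, 7 of the 30 had an unadjusted p under 0.05, against 14.2% of all genes, from -0.78 for *Gsk3b* to 0.87 for *Timeless*, with *Prkaa2*, *Fbxw11*, *Ddb1* and *Csnk1a1* among those between, and none passed. In WT females against WT males none of the 30 passed, and *Nr1d1* had the largest difference of those named, -1.24 ± 0.29, with *Nr1d2* at -0.75 ± 0.23, *Tef* at -0.70 ± 0.27, *Bhlhe41* at -0.71 ± 0.30 and *Tipin* at -0.44 ± 0.16. Over both genotypes (the fit added after the values were seen, without the prefix) 1 of the 30 passed, against 4.48% of all genes. It was *Nr1d1*, at -1.32 ± 0.33 (adjusted p = 0.0365 by limma).

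Outside the members, the 5 genes whose deviations were most like those of *Arntl* over the 16 libraries were *Dapk1* (r = 0.91), *Dtx4* (0.89), *Gm20659* (0.86), *Gm23455* (0.83) and *Pde9a* (0.78), among 12209 genes with a median r of 0.00. *Dapk1*, a calcium-dependent kinase, was the other gene to pass for a slope on *Arntl*, at 0.71 ± 0.10 (adjusted p = 0.0423 by limma). This call was lost with no trend, with the prefix or the mitochondrial share as a covariate, and without the mitochondrial genome. No gene with a positive slope passed there, nor with most single libraries left out. The most opposite genes outside the members included *Polr2b* (-0.85), *Snx19* (-0.85), *Kif21a* (-0.85) and *Tef* (-0.85). For *Dbp* the 5 most like it were *Tmem135* (0.92), *Tef* (0.90), *Polr2b* (0.90), *Nr1d1* (0.89) and *Fam120a* (0.88), and the 5 most opposite *Gm20659* (-0.81), *Dapk1* (-0.80), *Gadd45g* (-0.79), *Dtx4* (-0.77) and *Gm22728* (-0.77). *Tef* and *Nr1d1* are on the list of pathway genes above. No member other than *Dbp*, at -0.91, had an r with *Arntl* beyond these ends.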

How the data were processed

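BAT RNA from 16 mice was measured by stranded mRNA sequencing, and the values deposited by the authors are transcript TPM from kallisto 0.46.2 (build GRCm39 per the submitters' notes), scaled by the authors to 1000000 per library. They tested with DESeq2, which needs counts, so it was not run. Transcripts were matched to GENCODE mouse release 21 without version (135051 of 137438) and summed per symbol. Groups came from the sample labels. Genes with a mean of at least 1 TPM were tested on log2(TPM + 0.5), which understates changes at low TPM, with limma 3.58.1 in R 4.3.3 (lmFit, eBayes with trend), Benjamini-Hochberg adjusted over all genes at 0.05. The KO effect was fitted within each sex, as a mean and as a difference over both, with a sex contrast in WT and a slope on *Arntl* beside group means. Single values were tested with exact permutations, and the fits were tested on simulated data. Alternatives were pseudocounts of 1 and 0.1, no minimum or one of 5 TPM, median-of-ratios factors, removal of the mitochondrial genome, no trend, all libraries in 1 fit, a block for the replicate number, covariates for the prefix and the mitochondrial share, and each library left out. All 10 members were named, and pathway genes by a fixed rule (past a threshold, the 3 with the highest mean TPM, or 7 given by name), except that some results are not reported here. The members and lists were chosen with earlier results of these data known. WT mice were littermate controls, but which mice shared a litter is not given in the sources used here, so p-values measure the spread between these 16.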

Additional observations from a re-analysis of the deposited data

Results flagged for a closer look

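Of 44 sets of 4 values examined (a gene in a group), 2 held a library whose gap to its nearest neighbour took an unusually large share of the range, and chance does this in about 1 in 20 such groups. *Npas2* was 1.79 TPM in female KO replicate 1 and 0.276 to 0.485 TPM in the other 3 female KO mice; that library also had the highest *Arntl* (8.80 TPM) and the lowest *Dbp* (1.87 TPM) of all 16. *Per3* was 11.5 TPM in female KO replicate 2 and 4.18 to 5.14 TPM in the other 3, and that library also had the highest *Dbp* (17.5 TPM) and the lowest *Arntl* (3.52 TPM) of the female KO mice. It is the only female library with prefix 5, and the part of the prefix was not tested.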

How the results depend on the processing

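For KO within each sex and for its difference between the sexes, no member passed under any alternative run. The count of members past the threshold for the mean KO effect went from 0 to 1 with median-of-ratios factors (*Clock*) and with the replicate number as a block (*Per2*, adjusted p = 0.0269 by limma). For the sex difference in WT it went from 1 to 0 without a TPM minimum and with all 16 libraries in 1 fit, to 3 over both genotypes and to 0 there with the prefix. For the slope on *Arntl* it went from 1 to 0 without a TPM minimum (adjusted p of *Dbp* 0.133 by limma), without the mitochondrial genome (0.241), with the prefix and without prefix 8b. With 1 library left out these counts ran from 0 to 1, 0 to 2 (*Arntl* passed at adjusted p = 0.0275 by limma without male WT replicate 2) and 0 to 1, and the count of members with large spread from 3 to 5, or 3 without the mitochondrial genome. The sex difference in the clock index was -1.65, and -3.65 with *Dbp* minus *Arntl* alone. The cause of these changes was not tested.

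Signs turned for differences that had not passed the threshold. With the prefix in the fit these were *Per2* in males (-0.0079), *Arntl* (0.17) and *Dbp* (-0.26) in females and *Dbp* in the mean KO effect (-0.074). With median-of-ratios factors they were *Cry2* in males (-0.070) and *Cry1* in females (-0.045), and without the mitochondrial genome *Cry2* (-0.0091) and *Cry1* (-0.0033). Over both genotypes the sex difference was 0.010 in *Per1*, and with the prefix 0.73 in *Per2*. With 1 library left out the KO difference ran in males from -0.39 to 0.10 for *Per3*, -0.057 to 0.26 for *Cry2* and -0.71 to 0.15 for *Dbp*, in females from -0.088 to 0.18 for *Cry1*, in the mean from -0.088 to 0.070 for *Cry2* and -0.092 to 0.40 for *Dbp*; the sex difference from -0.60 to 0.32 for *Per1* and -0.88 to 0.014 for *Per2*; and the slope of *Per1* from -0.59 to 0.028.

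Same-numbered WT and KO mice did not deviate together (r from -0.08 to 0.35 in males and -0.12 to 0.15 in females; 3 and 2 of 8 libraries matched their own number best), so the number was not taken as a pairing; with the replicate block the count in each sex stayed at 0 and that for the sex difference at 1. The prefix could not be fitted in WT alone. TPM carry no depth, so counting error could not be separated from the spread between mice.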
